A study of Mus musculus with 13 samples.

Results

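Mitochondrially encoded transcripts are the RNAs copied from the small circular genome inside the mitochondrion. They were chosen here by name, as every row of the deposited count table whose Ensembl identifier maps to a mouse symbol beginning with mt-. This gave 37 genes of 37991 in the table, of which 13 encode proteins, 2 encode ribosomal RNAs and 22 encode transfer RNAs. A read was present for 28 of the 37 genes in at least 1 of the 10 sequenced cells and for 29 in at least 1 library.

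The study asked how B cells decide between growth with division and death, and sequenced large and small B cells for this purpose. Naive B cells were purified with magnetic beads from spleens of wild-type C57BL/6 mice aged 6 to 8 weeks. They were stimulated in culture for 24 h with CpG ODN 1668, a ligand of TLR9 (250 nM in the sample characteristics, a mass concentration in the protocol). Cells were trapped on a microfluidic chip, imaged and lysed, and their poly(A) RNA was amplified with ERCC spike-in RNA. The 13 libraries are 5 large cells (C1, E1, E3, G2 and C3, named by well), 5 small cells (A2, C12, C7, F7 and H1), a diluted bulk cDNA from 24 h called Positive, a tube with spike-ins and no cell called Negative, and a bulk sample from 0 h whose group label says unstimulated. Against that label, the characteristics of the 0 h sample list CpG at 250 nM. As in the methods, C3 was left out of the large cells, so that 4 large cells stand against 5 small cells. The values of C3 are given beside them. The labels tie no cell to a mouse or culture. Each size group therefore counts as 1 sample and no p-value is given.

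Total gene counts were 3311235 to 6311782 per cell, 1740862 in Positive, 825441 in the 0 h bulk and 190 in Negative. Of 10 B cell markers, each of the 9 cells had reads of at least 8, and their sum was 4248 to 33321 CPM in those cells, where CPM sums to 1000000 over all genes of a library, and 784 CPM in C3. C3 had no read of Cd79a, which signals for the B cell receptor, of the class II gene H2-Ab1 or of Cd22. Of 8 macrophage or dendritic cell markers it had reads of 4 (Adgre1 1868, Fcer1g 1746, Cd68 79 and Itgam 1 count), which summed to 895 CPM, against 0 to 1954 CPM in the 9 cells. Of 5 NK cell markers it had reads of Klrk1 alone (3497 counts, against 0 in the 9 cells), and it had none of the 8 T cell markers. The 5 plasma cell markers summed to 1367 CPM in A2, 1799 CPM in C12, 733 CPM in G2 and 303 CPM in E1. Their sum was 0 to 14.5 CPM in C7, F7, H1, C1 and E3, and 1.94 CPM in C3. Among the cells, A2 alone had reads of Jchain (1293 counts) and Sdc1 (15 counts), and none had a read of Tnfrsf17. Positive had 5458 CPM of B cell markers and the 0 h bulk 236 CPM. In the 0 h bulk 31.6% of all counts fell on Gm10800 and Gm10801, against at most 0.00635% in any cell, and 33107 genes had a read, against 3519 to 8656 per cell. The 0 h bulk and C3 therefore stand apart from the other libraries, and values that rest on them are given separately.

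The mouse mitochondrial genome is transcribed from both strands into long precursors that span most of the circle. Transfer RNAs sit between most of the other genes and mark the places where the precursor is cut. The mRNAs encode core subunits of respiratory complexes I, III and IV and of ATP synthase, while every subunit of complex II and all mitochondrial ribosomal proteins are encoded by nuclear genes. The rRNAs form the mitochondrial ribosome, and most of the mature mRNAs carry poly(A) tails.

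Several members share their sequence with other genes, which bears on how their reads could be assigned. In the GENCODE M21 transcripts of GRCm38, 7 of the 13 protein-coding members have a near-identical unprocessed pseudogene on mouse chromosome 1. The copy of mt-Co2, which encodes a core subunit of complex IV, is Gm28661. Its 681 aligned bases hold no mismatch, and the opening bases of both sense strands are shown with the start codon in capitals.
mt-Co2: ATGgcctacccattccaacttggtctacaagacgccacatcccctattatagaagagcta
Gm28661: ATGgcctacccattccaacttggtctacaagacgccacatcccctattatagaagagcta
The copy of mt-Nd3, a complex I subunit, is Gm28438, which aligns over 345 bases with 1 mismatch (T3C, counted from base 1 of mt-Nd3). The capital marks that base.
mt-Nd3: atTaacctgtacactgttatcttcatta
Gm28438: atCaacctgtacactgttatcttcatta
The copies of mt-Atp6 (Gm10925, 678 bases), mt-Co3 (Gm28437, 783 bases), mt-Nd4l (Gm10222, 294 bases) and the first 876 of the 1378 bases of mt-Nd4 (Gm28439) hold no mismatch. Gm29216 matches the last 483 of the 1545 bases of mt-Co1 with 1 mismatch. Of all stretches of 50 bases in a member, 100% were also present in a nuclear transcript for mt-Co2, 99.9% for mt-Co3, 99.5% for mt-Atp6, 98.8% for mt-Nd4l, 98.0% for mt-Nd3, 62.2% for mt-Nd4 and 51.1% for mt-Co1. The value was 8.19% for mt-Nd2, 7.61% for mt-Nd5, 1.04% for mt-Rnr2 and 0 for mt-Rnr1, mt-Nd1, mt-Nd6, mt-Cytb and mt-Atp8. Further copies with 95.2 to 97.6% identity lie on chromosome 2 (Gm13340 of mt-Co1, Gm13341 of mt-Co2 and Gm13339 of mt-Nd2) and chromosome 13 (Gm4076 of mt-Nd5), and the highest count of the chromosome 2 copies in any library was 46. Of the chromosome 1 copies, Gm10222 alone has a row in the count table, and its highest count in any library was 3. The sources used here do not say how the authors treated reads with several matching positions.

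Neighbouring members also overlap each other. The end of mt-Atp8 and the start of mt-Atp6, both of ATP synthase, share 43 bases, shown with the start codon of mt-Atp6 in capitals.
mt-Atp8 end: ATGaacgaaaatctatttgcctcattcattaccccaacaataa
The genes mt-Nd4l and mt-Nd4 share 7 bases. The genes mt-Nd5 and mt-Nd6 lie on opposite strands and share 14 bases at their ends. The sources used here do not say whether the counting used strand, so reads in that overlap cannot be told apart. The same holds for RNA of the 2 strands within any gene, so counts of mt-Nd6 could include RNA of the opposite strand.

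Mitochondrial RNA made up a few percent of the counts of each cell, and cells of 1 size differed as much as cells of different size. Mitochondrial genes held 2.56, 2.31, 4.28 and 4.11% of all gene counts in large cells C1, E1, E3 and G2. They held 1.98% in small cell A2, 2.40% in C12, 5.58% in C7, 1.26% in F7 and 4.77% in H1. The highest and the lowest share were thus both in small cells, and the range of the large cells lay inside that of the small cells. C3 had 2.02%, Positive 1.49% and the 0 h bulk 0.449%. Exact 95% binomial intervals were at most 0.0495 percentage points wide in the 10 cells and cover counting error only, since PCR copies without molecular identifiers are not independent molecules. Negative had 2 mitochondrial counts among 190, 1 each for mt-Nd5 and mt-Cytb, which is 1.05% with an interval of 0.128 to 3.75%.

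**Figure D1:**
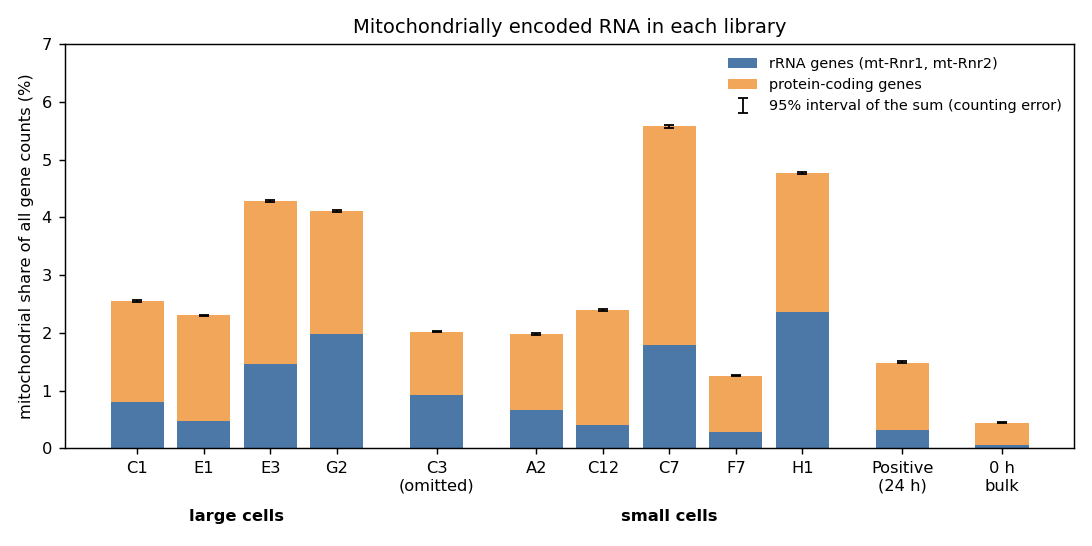
Bars give the share of all gene counts (%, vertical axis) that fell on mitochondrial genes in each library, split into rRNA and protein-coding genes. Caps mark exact 95% binomial intervals of the sum, and tRNA genes are too few to see. The 4 large cells lie between 2.31 and 4.28%, inside the 1.26 to 5.58% of the 5 small cells.

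The 16S rRNA gene mt-Rnr2, which gives the large subunit of the mitochondrial ribosome its RNA, was the member with the most counts in 6 of the 9 cells. Its share of the mitochondrial counts was 29.6, 18.7, 32.3 and 46.3% in the large cells C1, E1, E3 and G2, and 44.1% in C3. Among small cells it was 30.8% in A2, 16% in C12, 30.9% in C7, 20.8% in F7 and 46.1% in H1. Positive had 20.6%, above C12 and E1 alone among the cells and just below F7. As a share of all gene counts, mt-Rnr2 was at 4314 to 19011 CPM in large cells, 8911 CPM in C3, 2620 to 21979 CPM in small cells and 3064 CPM in Positive. It ranked between 2 and 28 among all genes of a cell and 24 in Positive.

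The 12S rRNA gene mt-Rnr1, for the small ribosomal subunit, has a transcript of 955 bases, against 1582 for mt-Rnr2. In every cell mt-Rnr1 lay well below mt-Rnr2. It held 1.59 to 2.04% of the mitochondrial counts in large cells, 2.07% in C3, 0.667 to 3.61% in small cells and 1.36% in Positive. Per kb of transcript, mt-Rnr2 exceeded mt-Rnr1 by a factor of 7.11 to 13.7 in large cells, 12.9 in C3, 5.93 to 15.4 in small cells and 9.15 in Positive. In the 0 h bulk the factor was 1.15. Together the rRNAs made up 20.3 to 48.3% of the mitochondrial counts in large cells and 16.7 to 49.7% in small cells, with a median of 32.1% over the 9 cells, 46.1% in C3, 21.9% in Positive and 14.5% in the 0 h bulk.

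**Figure D2:**
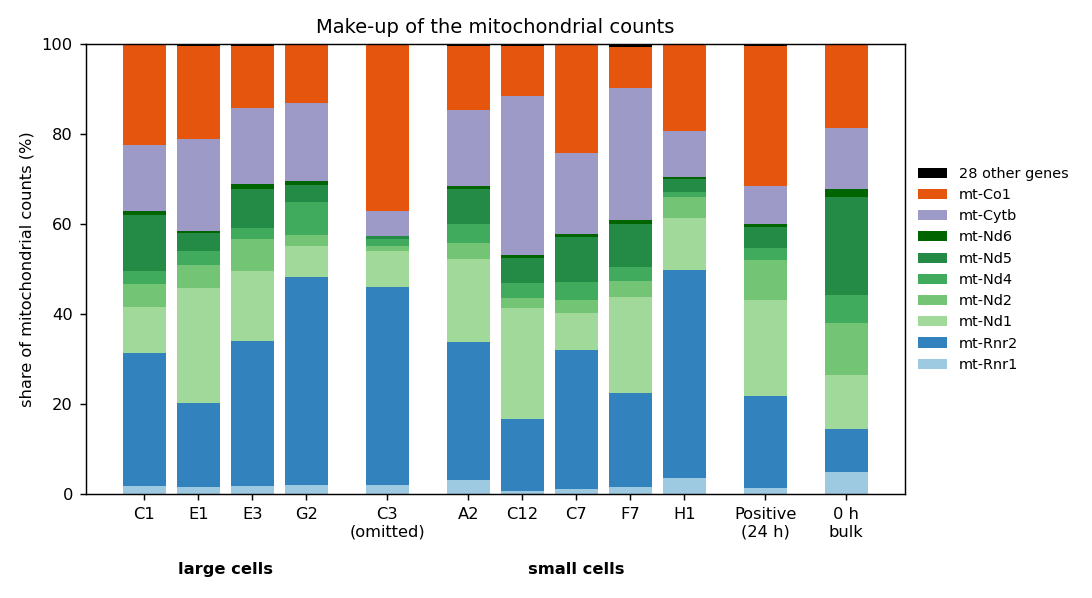
Stacked bars give the share of mitochondrial counts (%, vertical axis) of the 9 members with at least 1% in any library, with blue for rRNAs, green for complex I, purple for complex III and orange for complex IV, and black for the 28 other genes together. Among the cells, the rRNA part runs from 16.7% in C12 to 49.7% in H1, and mt-Co1 is largest in C3 at 37.0%.

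Of the complex I genes, mt-Nd1, a subunit of the membrane arm, had the highest level per kb in all 9 cells. Its share of the mitochondrial counts was 10.1, 25.5, 15.6 and 6.94% in C1, E1, E3 and G2, against 18.3% in A2, 24.7% in C12, 8.21% in C7, 21.3% in F7 and 11.6% in H1. E1 was the highest of the large and C12 of the small cells, and these 2 had the lowest rRNA shares of their groups. C3 had 7.85% and Positive 21.2%. In CPM mt-Nd1 varied less between cells, from 2592 to 6670 CPM in large cells and from 2686 to 5915 CPM in small cells, with 1586 CPM in C3 and 3166 CPM in Positive.

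The other membrane-arm genes of complex I, mt-Nd2, mt-Nd4, mt-Nd5 and mt-Nd6, were lower per kb. The gene mt-Nd2 held 5.14, 5.08, 6.94 and 2.37% of the mitochondrial counts in C1, E1, E3 and G2 and 2.38 to 4.66% in small cells, against 1.13% in C3 and 8.92% in Positive, which was above every cell. The gene mt-Nd5, a proton-pumping subunit, held 12.4, 4.04, 8.70 and 3.72% in C1, E1, E3 and G2, against 7.79% in A2, 5.51% in C12, 10.0% in C7, 9.54% in F7 and 2.96% in H1. C3 stood far below, at 0.632%, and Positive had 4.63%. The gene mt-Nd4 lay at 2.55 to 3.13% in C1, E1 and E3 but 7.35% in G2, and at 1.23 to 4.26% in small cells, with 1.55% in C3 and 2.64% in Positive. The gene mt-Nd6 is the 1 mRNA coded on the other strand, and its counts could include RNA of either strand. It held 0.467 to 1.01% in large cells, 0.386 to 0.881% in small cells, 0.0575% in C3 and 0.678% in Positive.

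Complexes III and IV each had 1 abundant mitochondrial mRNA. The gene mt-Cytb encodes cytochrome b, the only mitochondrially encoded subunit of complex III. It held 14.6, 20.4, 16.9 and 17.4% of the mitochondrial counts in C1, E1, E3 and G2, against 16.9% in A2, 35.2% in C12, 17.9% in C7, 29.4% in F7 and 10.1% in H1. The large cells lay close together and the small cells spread on both sides of them, while C3 had 5.55% and Positive 8.46%. The gene mt-Co1 encodes the catalytic subunit of complex IV. It held 22.1, 20.6, 13.8 and 12.8% in C1, E1, E3 and G2, against 14.2% in A2, 11.1% in C12, 24.0% in C7, 9.13% in F7 and 19.1% in H1. C3, at 37.0%, and Positive, at 31.0%, were both above every one of the 9 cells.

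Set on a common scale by transcript length, the 15 rRNA and protein-coding genes fell into an upper set of 10 and a lower set of 5. By the median over the 9 cells, the order was mt-Rnr2 (4786 CPM per kb), mt-Nd1 (4785), mt-Cytb (4206), mt-Co1 (3401), mt-Nd2 (1128), mt-Nd5 (837), mt-Rnr1 (650), mt-Nd4 (559), mt-Nd6 (355) and mt-Nd3 (263), all in CPM per kb. Each of these genes overlapped in range with the next in that order. The lower set began at mt-Co2 with 8.11 CPM per kb (3.94 to 19.0), and its range did not reach that of mt-Nd3 (169 to 389). It went on with mt-Atp6 (4.89), mt-Co3 (4.24), mt-Atp8 (1.88) and mt-Nd4l (0), the ranges of which overlapped from each gene to the next. The order of the 15 genes by share of mitochondrial counts, not scaled by length, was alike from cell to cell. Across these 15 shares, Spearman's rho had a median of 0.95 over the 36 pairs of the 9 cells (0.92 to 1.00). Pearson's r of the same shares had a median of 0.89 (0.52 to 0.99). These describe genes of 1 genome, which are not independent replicates.

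**Figure D3:**
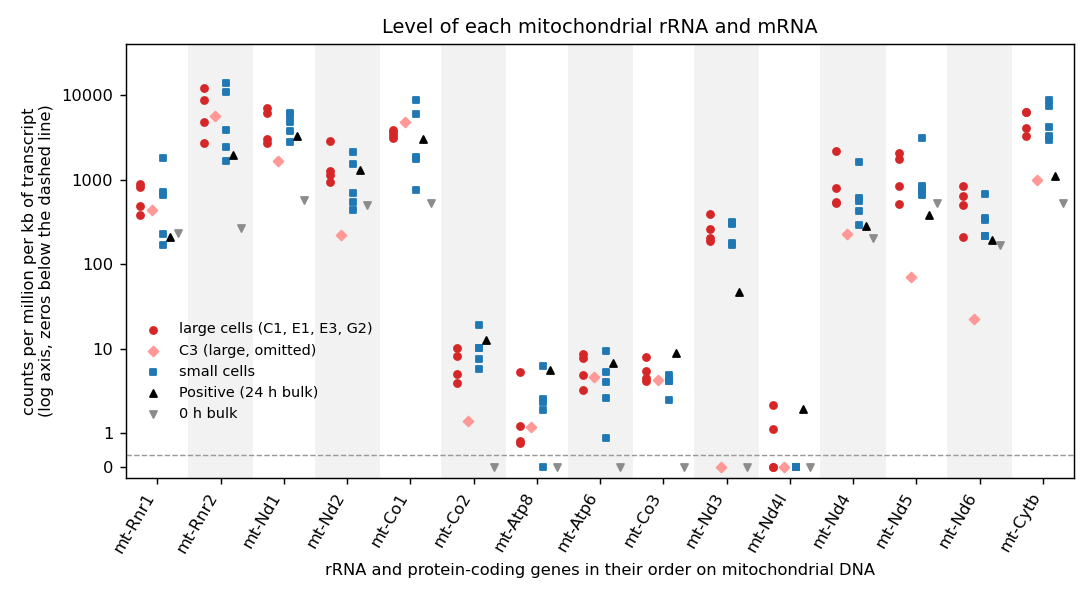
Points give the CPM per kb of transcript (log axis, zeros below the dashed line) of the 15 rRNA and protein-coding genes in their order on mitochondrial DNA. The 9 cells keep mt-Co2, mt-Atp8, mt-Atp6, mt-Co3 and mt-Nd4l at or below 19.0 and every other gene at or above 167.6.

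The 5 genes of the lower set lie between mt-Co1 and mt-Nd4 in the gene order, with mt-Nd3 between mt-Co3 and mt-Nd4l. They were grouped after their values were seen. The gene mt-Co2 had 14, 17, 42 and 31 counts in C1, E1, E3 and G2, against 36, 23, 43, 32 and 38 counts in A2, C12, C7, F7 and H1. The gene mt-Co3, the third core subunit of complex IV, had 13 to 35 counts in large cells and 10 to 22 counts in small cells. The gene mt-Atp6 had 9 to 33 counts in large cells and 2 to 35 in small cells, mt-Atp8 had 1 to 6 and 0 to 7, and mt-Nd4l had a read in E1 (4 counts) and E3 (2 counts) alone among the cells. Together these 5 genes are 19.0% of the length of the 15 genes and held 0.0303 to 0.0845% of the mitochondrial counts of the 9 cells, 0.0383% in C3 and 0.146% in Positive. The part of the shared sequence in these levels was not tested. Of the 5, mt-Co2, mt-Atp6, mt-Co3 and mt-Nd4l share nearly all of their sequence with the chromosome 1 copies. For mt-Atp8, which was as low, no copy of 100 bases or more was found in these transcripts. Its last 43 bases are also the start of mt-Atp6 and so lie in Gm10925. Nuclear sequence outside annotated transcripts was not searched. The gene mt-Nd3 shares 98.0% of its stretches and had 265 to 811 counts in the 9 cells. For mt-Nd4, counts per kb over the bases outside its copy would be 4916 to 33625, if all of its counts fell there, against 1791 to 12250 over the whole gene.

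Transfer RNA genes took almost no counts. Over the 10 cells they had 744 counts in 13 of 22 genes, which was 0.0101 to 0.0907% of the mitochondrial counts per cell, against 0.254% in Positive. The gene mt-Tp, for the proline tRNA, made up 79.2% of these counts and mt-Tq, for the glutamine tRNA, 9.54%. Both are shown because they carry most of the tRNA signal.
mt-Tp: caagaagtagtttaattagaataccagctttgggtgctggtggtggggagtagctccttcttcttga
mt-Tq: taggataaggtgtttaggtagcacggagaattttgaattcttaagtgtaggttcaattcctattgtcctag
The gene mt-Tp had 14, 119, 115 and 99 counts in C1, E1, E3 and G2, against 54, 5, 117, 2 and 64 counts in A2, C12, C7, F7 and H1, with 0 in C3 and 36 in Positive. The gene mt-Tq was the only tRNA gene with a read in all 10 cells, at 1 to 22 counts, and had 28 counts in Positive. Both lie on the strand opposite to most genes, as do 8 of the 22 tRNA genes, and these 8 took 91.4% of the tRNA counts. The use of strand in the counting is not given, so these counts could include RNA of either strand. Outside mt-Tp and mt-Tq, the highest tRNA count in a cell was 12, for mt-Tt in C7. Of the 22 tRNA genes, 8 had no read in any library.

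Between large and small cells, the mitochondrial share of counts did not separate the groups. Its median was 3.33% in the 4 large cells and 2.40% in the 5 small cells, a difference of 0.93 percentage points. Means were 3.31% ± 1.02 (SD, n = 4) and 3.20% ± 1.87 (SD, n = 5), so that the spread inside each group exceeded the difference of the means of 0.11. With the rRNA genes left out, the medians differed by -0.0011 percentage points, and with C3 kept by 0.16. The share of rRNA among mitochondrial counts had medians of 32.8% in large and 32.1% in small cells. Leaving out single cells moved the difference of 0.93 between -0.25 and 1.71 percentage points.

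On the scale of the study, a count was multiplied by the deposited spike-in factor of its library and 100 was added. Above 300 on this scale a gene was taken as on in that cell. The expression score subtracts the share of small cells with the gene on from that of large cells. Of the 37 members, 10 passed this threshold in a cell or more of the 9, as did 6435 of all genes, and these are called detected. Of the 10, 8 were on in all 9 cells, so that their score could not differ from 0. The gene mt-Nd3 was the 1 member called higher in large cells, at a score of 0.55. At a score of 0.5 or more, 5.83% of the 6435 genes were called higher. None was called lower, against 1.88% of all genes. The adjusted counts of mt-Nd3 were 365, 357, 422 and 140 in C1, E1, E3 and G2, against 405, 281, 204, 235 and 273 in A2, C12, C7, F7 and H1. These values overlap, lie on both sides of the threshold of 300, and had a log2 ratio of 0.20. At a threshold of 200 the score was -0.25, at 400 it was 0.05, and with C3 kept it was 0.40.

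The log2 ratio of mean adjusted counts, large over small, was above 0 for 9 of the 10 detected members, but none reached 1 or -1. Of all detected genes, 16.1% had a ratio of 1 or more and 14.3% a ratio of -1 or less, while of the 175 genes on in all 9 cells 4.0% and 3.43% did. The median of the 10 members was 0.26, beside 0.02 over the 6435 genes and -0.04 over the 175 genes. Ratios were 0.90 for mt-Nd2, 0.72 for mt-Nd6, 0.62 for mt-Nd5, 0.45 for mt-Co1, 0.29 for mt-Nd4, 0.23 for mt-Nd1, 0.20 for mt-Nd3, 0.19 for mt-Rnr2, 0.12 for mt-Cytb and -0.12 for mt-Rnr1. In CPM, no member had groups that did not overlap, against 0.808% of all detected genes. The gene mt-Nd2, with the largest ratio, had adjusted counts of 5414, 3387, 7159 and 643 in C1, E1, E3 and G2, against 3617, 1088, 1650, 1130 and 3630 in A2, C12, C7, F7 and H1. C1, E1 and E3 thus exceeded 3 or more of the 5 small cells, and G2 was below all of them.

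The ratios depended on the scale and on single cells. With libraries scaled to equal totals, mt-Co1 (-0.11), mt-Cytb (-0.09) and mt-Rnr1 (-0.14) were below 0, 7 of 10 were above 0 and the median was 0.06. Without A2 the median of the members was 0.59, but that of all genes was 0.38, and mt-Nd2 reached 1.15. Without C1 the median was 0.09 beside -0.31 over all genes. With C3 kept it was 0.006 beside -0.12 over all genes, with 5 of 10 members above 0. With each of the 9 cells left out in turn, mt-Rnr1, mt-Rnr2, mt-Nd1 and mt-Cytb took both signs, and the other 6 members remained above 0.

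**Figure D4:**
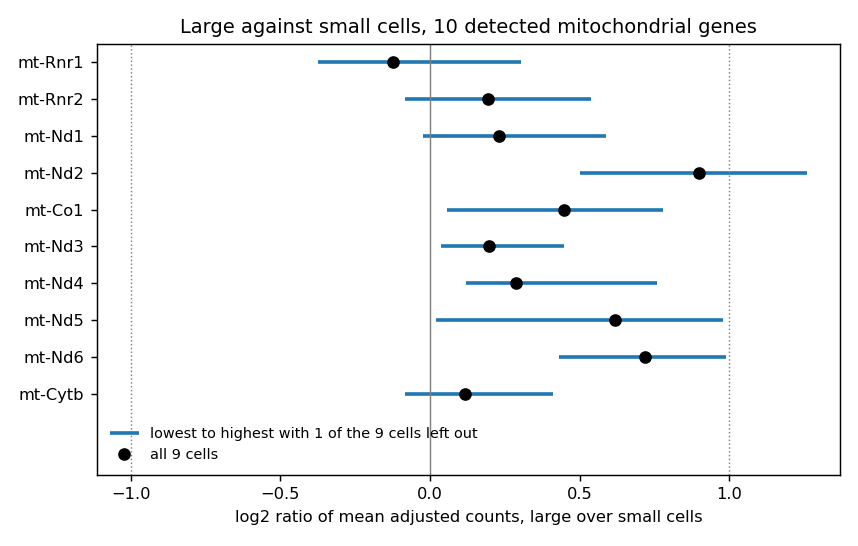
Points give the log2 ratio of mean adjusted counts, large over small cells, of the 10 detected members, and lines the lowest to highest value with 1 of the 9 cells left out. Dotted lines mark -1 and 1. All points lie between -0.12 (mt-Rnr1) and 0.90 (mt-Nd2), and with a cell left out mt-Nd2 alone passes 1.

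Large and small cells differed less in mitochondrial counts than in volume, and counts of all genes did likewise. Spike-in-normalised mitochondrial counts, the sum of counts times the factor, were 103357, 64719, 101686 and 22898 in C1, E1, E3 and G2, against 96443 in A2, 41562 in C12, 54595 in C7, 28848 in F7 and 75788 in H1. G2 held the fewest of the 9 cells, and A2, the smallest cell, held nearly as many as C1. The medians of 83202 in large and 54595 in small cells gave a ratio of 1.52, while the median volumes of 4.17 and 1.36 times that of A2 gave a ratio of 3.06. Over all genes the normalised counts had medians of 2591552 in large and 1732570 in small cells, a ratio of 1.5, so that the mitochondrial ratio was close to that of all counts. Per unit of relative volume, the medians were 18501 in large and 40105 in small cells, a ratio of 0.46, and the ranges (6381 to 26830 and 21192 to 96443) overlapped. C3 had 16932 normalised counts at a relative volume of 4.03. The factor rests on spike-ins of each library, and less RNA captured and less RNA present cannot be told apart.

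**Figure D5:**
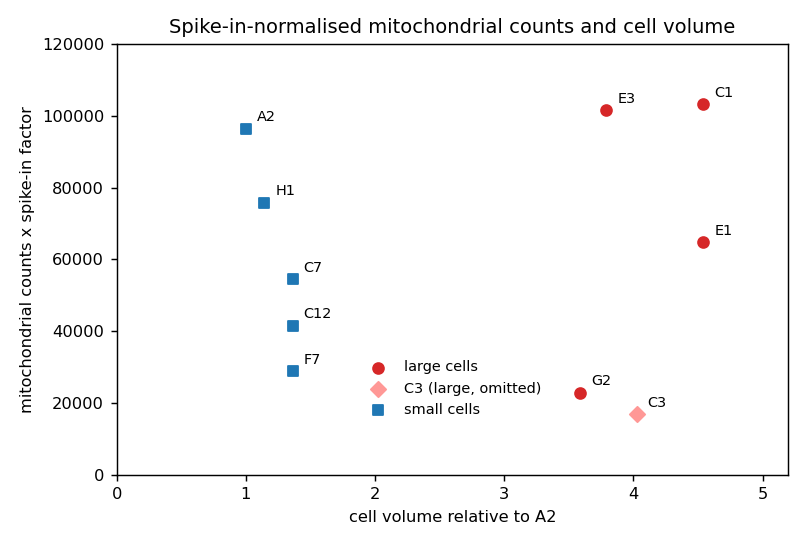
Each point is 1 cell, placed by its volume relative to A2 (horizontal axis) and its mitochondrial counts times the spike-in factor (vertical axis). The 4 large cells span 22898 to 103357 and the small cells 28848 to 96443, at separate volumes.

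C3 had a mitochondrial share of all counts inside the range of the 9 cells, and low values of several mitochondrial mRNAs. Among genes on in all 9 cells, 5 of 8 members were below the lowest of the 9 cells in CPM, against 54.3% of the 175 genes, so that the members' count was near that of comparable genes. Of the 10 detected members, 7 were below that range, namely mt-Nd1, mt-Nd2, mt-Nd3, mt-Nd4, mt-Nd5, mt-Nd6 and mt-Cytb, against 8.11% of all detected genes. A gene with no read in some of the 9 cells cannot be below their range, which lowers the share over all detected genes. The complex I genes mt-Nd3, mt-Nd5 and mt-Nd6 were furthest away, relative to the median of the 9 cells. The gene mt-Nd3 had no read in C3, which allows up to 7.27e-05% of all counts, and its lowest share of mitochondrial counts in the 9 cells would have given 144 counts there. The gene mt-Nd6 was at 0.063 times and mt-Nd5 at 0.084 times that median, and mt-Cytb at 0.23 times. By contrast mt-Co1 (7488 CPM in C3), mt-Rnr2 and mt-Rnr1 lay inside the range of the 9 cells, and none was above it, against 7.2% of all detected genes.

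Bulk cells at 24 h had a lower mitochondrial share than 8 of the 9 cells, in which the median was 2.56% against 1.49% in Positive, a difference of 1.07 percentage points. F7, at 1.26%, was below Positive. In a bulk library, fewer cells of a type and less RNA per cell cannot be told apart. Of the 10 detected members, 5 were higher in each of the 9 cells than in Positive, mt-Nd3, mt-Nd4, mt-Nd5, mt-Nd6 and mt-Cytb, against 2.19% of the 6435 genes. A gene with no read in some of the 9 cells cannot meet this rule, which lowers the share over the 6435 genes. Among genes on in all 9 cells, 3 of 8 members were higher in each cell than in Positive, against 10.9%. None of the 10 detected members was above the highest cell in Positive, against 8.76% of all detected genes. Of the 27 other members, 3 were above it at low counts, mt-Tq (28 counts in Positive), mt-Co3 (12 counts) and mt-Tr (1 count). The gene mt-Cytb was at 3353 to 10003 CPM in the 9 cells and 1261 CPM in Positive, which is 0.26 times their median. The gene mt-Nd3 was at 59.0 to 135 CPM in the 9 cells and 16.1 CPM in Positive (28 counts), which is 0.18 times their median. Values of mt-Nd4 (399 to 3020 CPM in cells, 394 CPM in Positive) and mt-Nd6 (108 to 431 CPM in cells, 101 CPM in Positive) were just outside. The genes mt-Nd2, mt-Co1 and mt-Nd1 were near the cells' medians, at 1.14, 0.88 and 0.69 times. With C3 kept among the cells, Positive was outside the range of none of the 10 detected members, since C3 was lower still for all 5. A diluted bulk cDNA and a lysed single cell also differ in how they were prepared, and the part of this in the differences cannot be told apart from that of the cells.

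The bulk libraries differed in their mitochondrial share, which was 1.49% in Positive at 24 h and 0.449% in the 0 h bulk, a difference of 1.04 percentage points without replicates. The 0 h bulk had few B cell transcripts (above), so the difference in time and that in library content cannot be told apart. Its mitochondrial counts were spread evenly over several genes. Counts per kb were 439 for mt-Nd5, 440 for mt-Co1, 441 for mt-Cytb, 467 for mt-Nd1 and 412 for mt-Nd2, so that the highest of these 5 genes, chosen after their values were seen, was 1.13 times the lowest. In the 9 cells the same ratio was 2.89 to 13.4, in C3 69.1 and in Positive 8.74. In contrast mt-Co2, mt-Atp8, mt-Atp6, mt-Co3, mt-Nd3 and mt-Nd4l had no read at all in the 0 h bulk. At the level of mt-Nd6, the lowest of the remaining mRNAs with 139 counts per kb, the 2998 bases of these 6 genes would have had 416 counts. The gene mt-Nd4 had 168 counts per kb over its whole length and would have 462 over the bases outside its chromosome 1 copy, whereas mt-Co1 had 440 and would have 640. The part of the nuclear copies in this pattern was not tested.

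The members on in all 9 cells had a higher median variation between cells than all genes on in all 9. The coefficient of variation of CPM over the 9 cells had a median of 67.2% (35.4 to 75.6%) for the 8 members on in all 9 cells, beside 46.8% (14.0 to 121%) for all 175 such genes. Pearson's r of log2 CPM was taken over the 9 cells, for the 9 members with at least 1% of mitochondrial counts. It was above 0 in 35 of 36 pairs, with a median of 0.50. The most alike were mt-Rnr1 and mt-Rnr2 (r = 0.90, rho = 0.95), followed by mt-Rnr2 and mt-Co1 (0.84, 0.85) and mt-Nd2 and mt-Co1 (0.82, 0.92). The least alike were mt-Nd1 and mt-Nd4 (-0.04, 0.13). These values share their libraries and totals and are a description. Ratios between neighbours were far from constant. Per kb, mt-Cytb exceeded mt-Nd5 by a factor of 1.88 to 8.03 in large cells and 2.86 to 10.2 in small cells, 14.0 in C3 and 2.91 in Positive, while mt-Nd5 exceeded mt-Nd6 in all 12 libraries with reads of both, by 1.31 to 4.49 in the 9 cells.

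The nuclear partners listed here were summed over their genes and set against the mitochondrial genes of the same complex. By their medians over the 9 cells, the nuclear sums were lower in complexes I, III and IV and higher in ATP synthase. The 7 mitochondrial genes of complex I summed to 4908 to 15023 CPM over the 9 cells, and the 7 nuclear core genes to 291 to 1519 CPM. In C3 the nuclear sum was 3.63 CPM beside 2266 CPM of the mitochondrial genes. In complex III mt-Cytb was at 3353 to 10003 CPM and the 4 nuclear genes summed to 251 to 1372 CPM. In complex IV the 3 mitochondrial genes summed to 1159 to 13403 CPM with a median of 5266, and the 5 nuclear genes to 714 to 1180 CPM with a median of 983, so that these ranges overlapped. For ATP synthase the 5 nuclear genes summed to 1092 to 7327 CPM, beside 0.604 to 7.64 CPM of mt-Atp6 and mt-Atp8. The genes mt-Atp6, mt-Co2 and mt-Co3 share nearly all of their sequence with chromosome 1 copies, and the part of this in these sums was not tested. None of the 7 detected nuclear genes of complex I was called by score. Ratios, large over small, were 1.14 for Ndufs1, 1.03 for Ndufs7 and 0.87 for Ndufv2, and the median of the list was 0.15.

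Complex III had 2 of 4 nuclear genes called lower by score in large cells, Cyc1, which encodes cytochrome c1 (-1.23), and the core protein gene Uqcrc2 (-1.08), both with a score of -0.55, against 1.88% of all genes, while mt-Cytb of the same complex had a ratio of 0.12. Uqcrfs1, the Rieske iron-sulfur protein, had -0.62, and the median of the list was -0.85. For Cyc1 and for Uqcrc2, 1 of the 4 large cells had the gene on, against 4 of the 5 small cells, and the ratio was -0.74 for both at its smallest size with a cell left out. No gene of the other respiratory lists was called by score in either direction. Ratios were -0.74 for Cox5b, -0.66 for Cox5a and 0.31 for Cox7a2 of complex IV, 0.93 for Atp5c1, -0.60 for Atp5d and 0.42 for Atp5a1 of ATP synthase, and 0.99 for Sdhd, 0.43 for Sdhb and -0.18 for Sdhc of complex II. The lists' medians were -0.14 (5 genes), 0.40 (5 genes) and 0.24 (4 genes).

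Among genes that keep and copy mitochondrial DNA, 13 of 20 were detected, and by score none was called higher and 1 lower, against 5.83 and 1.88% of all detected genes. The gene called lower was Dguok, a mitochondrial deoxyguanosine kinase (score -0.80, log2 ratio -1.13), which is named for that call. The largest ratios were 2.13 for Rrm2b, a subunit of ribonucleotide reductase, -1.50 for Twnk, the mitochondrial helicase, and 1.49 for Polrmt, the mitochondrial RNA polymerase. Polrmt was on in 1 large and 1 small cell, and its ratio ran from -0.59 to 2.09 with cells left out. The median of the list was -0.29, with 3 of the 13 genes past a ratio of 1 and 3 past -1, against 16.1 and 14.3% of all detected genes.

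Of 30 genes of mitochondrial RNA processing and stability, 20 were detected, 2 were called higher by score and none lower. They were Mtpap, the mitochondrial poly(A) polymerase (score 0.50, ratio 1.60), which 2 of the 4 large cells and no small cell had on, and Fastkd2, a protein of mitochondrial RNA granules (score 0.55, ratio 1.55). Elac2, which cuts the 3′ ends of tRNAs, had a ratio of 1.47 and was on in 1 large cell. The median of the list was 0.59. Of its 20 detected genes, 4 were past a ratio of 1 and 3 past -1, against 16.1 and 14.3% of all detected genes. Of 14 translation and membrane insertion genes, 11 were detected, and Tufm, the mitochondrial elongation factor Tu, was called higher by score (0.55, ratio 1.09). Mtrf1, a release factor, had -0.96 and Mtfmt, which formylates the initiator tRNA, 0.96, and the median of the list was -0.05. The 3 calls by score among 31 detected genes of these lists compare with 5.83% of all genes.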

How the data were processed

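The authors aligned reads with STAR, as the submitters' processing notes and the methods name it, to mouse build m37 with Ensembl genes. For the STAR version, the counting tool, the use of strand and multiply matching reads, details are not given in the sources used here. Deposited by the authors are whole-number counts of reads for each gene, a spike-in factor per library (a linear ratio from a fit to the most abundant ERCC spike-ins) and the cell volume relative to the smallest cell, which was used unchanged. Another 26 columns with values of samples were left aside, because adjusted counts (count times factor plus 100) were recomputed. The deposited expression scores and the pathway and motif tables hold the authors' comparisons and were not used.

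Symbols and transcript sequences came from GENCODE M21 (GRCm38) by Ensembl identifier, with symbols for 32919 of 37991 genes. No coordinates are given, since the builds differ. Nuclear copies were transcripts with at least 95% identity over 100 bases in blastn 2.17.0, and shared stretches were exact matches of 50 bases. Shares are of all gene counts or of mitochondrial counts, with exact (Clopper-Pearson) 95% binomial intervals for counting error only. A count of 0 allows up to 3 counts. A score of 0.5 or more or -0.5 or less was a call by score, and genes past a log2 ratio of 1 or -1 were counted separately. Members with at least 1% of mitochondrial counts in any library are named with values, the others by counts and range, and up to 3 detected genes of each nuclear list by the size of their ratio. The members and lists were chosen with earlier results of these data known. The score and ratio were tested on simulated data. Alternatives were other scalings (edgeR 4.0.16 TMM factors in R 4.3.3), constants, thresholds and denominators, C3 kept, and each cell left out. A threshold of 400 for mt-Nd3 was added after seeing the data. Scripts ran in Python 3.11.15 with pandas 2.3.3, numpy 2.4.6, matplotlib 3.10.9 and scipy 1.17.1.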

Additional observations from a re-analysis of the deposited data

Results flagged for a closer look

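Of 26 groups of cells, over 13 measures, 3 held a value far from the other cells of their size by Dixon's criterion at 95%. Chance gives about 1 in 20 groups where groups are independent and values normally spread. The measures were taken on the same cells, so the 3 flags cannot be set against that rate. The level of mt-Nd4 was 3020 CPM in large cell G2, against 313 to 1093 CPM in the other large cells with C3 among them. It was 2224 CPM in small cell C7, against 399 to 844 CPM in the other small cells. The level of mt-Nd5 was 5579 CPM in C7, against 1203 to 1542 CPM in the other small cells. C7 also had the highest mitochondrial share of all counts (5.58%) and the fewest gene counts (3311235). For mt-Nd4 the first 876 of 1378 bases match a nuclear copy, and the part of this in its levels was not tested.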

How the results depend on the processing

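Over 8 results, 25 of 32 other settings and 57 of 63 settings with a cell left out kept the result within its spread or within 1.5 times its count. For results over cells the spread was an SD between cells, within which a result could change sign. The difference in mitochondrial share between large and small cells did so without A2, C12 or F7 and was still counted as kept. The number of members called by score was 0, in place of 1, with C3 kept, with library totals, with TMM factors and at a threshold of 200. It was 0 without C1, E1 or E3, so that it ran from 0 to 1. The number of members past a ratio of 1 or -1 was 3 with medians over cells in place of means (mt-Nd2, mt-Nd5 and mt-Rnr1) and 0 to 1 with cells left out, with mt-Nd2 as the 1 gene without G2, A2 or H1. The number of members outside the cells' range in Positive was 0 with C3 kept and 5 to 6 with cells left out. The difference between the 24 h and the 0 h bulk was 0.78 percentage points with rRNA genes left out. With cells left out, the difference between large and small cells was -0.25 to 1.71 percentage points, the members' median ratio 0.09 to 0.59, the difference between cells and Positive 0.99 to 1.84 and the rRNA share 31.8 to 33.0%. The cause was not tested in each case. No paired analysis was possible because the wells carry no replicate numbers and no test between size groups was made. The main limits are 1 sample per size group, single bulk libraries, an unknown treatment of reads shared with nuclear copies, and depth, at which tRNA genes and mt-Nd4l could not be compared.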
